A study of Mus musculus with 8 samples.

Results

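Basophils of the mouse kidney are described here, taken as every cell to which the authors gave the class name Baso. There were 120 of them among 77393 cells, which is 0.155% of all cells and 1.22% of the 9844 cells in the 15 immune classes. With pDC, which also held 120 cells, it was the smallest of the 28 classes. Basophils are rare granulocytes that circulate in blood, carry histamine-containing granules and the high-affinity IgE receptor, and can release interleukin-4 and interleukin-6. In mice they are recognised by the protease Mcpt8 and the surface receptor Cd200r3. They enter inflamed tissue and can influence how helper T cells differentiate, and interleukin-6 is among the signals that turn CD4 T cells into Th17 cells, the interleukin-17 producers. Gene-level counts were not analysed here, so Mcpt8, Cd200r3 and Il6 could not be examined, and the class is taken on the authors' name.

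The cells came from single-cell RNA sequencing of whole kidney in C57BL/6 mice aged 7 weeks, with 2 samples after unilateral ureteric obstruction (UUO) and 6 Control samples. In UUO the left ureter was tied and animals were killed at day 7, a model of tubular injury, inflammation and fibrosis. The protocol text is the same for all samples, and only titles and the disease label mark the Controls, whose own handling (sham surgery or none) the labels do not state. No label says that each sample is a different mouse. The p-values therefore measure sample-to-sample spread, part of which may be technical.

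The libraries held 18393 and 12930 cells in UUO 1 and UUO 2, and between 2263 and 16168 cells in the Controls. Controls 3 and 4 were counted as 1 sample, since their numbers of cells per class did not differ at the 0.05 level (chi-square p = 0.0509), whereas the 14 other Control pairs did (p at most 4.09e-41). A p-value this near 0.05 does not show that Controls 3 and 4 are 1 sample, and no label says so. Pooling them left n = 2 for UUO and n = 5 for Control. Libraries shared 3243 of 74073 distinct cell barcodes. No barcode occurred in 2 basophils, 8 cells of other classes carried a basophil's barcode, and 0 of those 8 had the same UMIs (transcript molecules) and genes as that basophil.

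The first question was whether obstructed kidneys held more basophils. Of the 120 basophils, 99 came from UUO and 21 from Control samples. UUO 1 held 34 basophils and UUO 2 held 65. Control 1 held 1, Control 2 held 2, Control 3 held 3, Control 4 held 4, Control 5 held 9 and Control 6 held 2. Every library therefore had at least 1 basophil, but no Control library had 10.

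As a share of all cells, basophils were 0.185% (95% exact binomial interval 0.128 to 0.258) in UUO 1 and 0.503% (0.388 to 0.640) in UUO 2. They were 0.0278% in Control 1, 0.0311% in Control 2, 0.113% in the pooled Controls 3 and 4, 0.0557% in Control 5 and 0.0146% in Control 6. Both UUO samples lay above every Control sample, and the lower UUO sample held 1.64 times the share of the highest Control. The counting intervals did overlap at that boundary, since the interval of the pooled Controls 3 and 4 ran from 0.0453 to 0.232. Such intervals cover counting error only.

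The group means were 0.344% ± 0.225 (SD, n = 2) for UUO and 0.0484% ± 0.0389 (SD, n = 5) for Control, and their ratio was 7.11. Put as frequencies, 1 cell in 199 was a basophil in UUO 2 and 1 in 541 in UUO 1. Among the Control samples as counted it was 1 in 888 in the richest and 1 in 6830 in the poorest. Taken apart, the library of Control 3 held 0.133% (1 in 754) and that of Control 4 0.101% (1 in 988). The UUO samples differed from each other too, and their counting intervals did not meet.

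For the test, limma was fitted to the log2 odds of each share over all 28 classes. The UUO minus Control difference for basophils was 2.74 (95% interval 1.08 to 4.41, limma adjusted p = 0.00441). Of the 28 classes, 21.4% were called higher at an adjusted p of 0.05, 50% in either direction and 60.7% before adjustment, so the basophil call stands in a fit where many classes moved. The limma fit gave all classes a common variance. The two-sided exact permutation test, which takes the basophil values alone, gave p = 0.0476, the smallest that 2 samples against 5 allow, which 42.9% of the classes reached. Basophils ranked 5 of 28 by the size of the rise, between the CD8 T class at 2.76 and the CD4 T class at 2.60.

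Without UUO 2 the difference was 2.02 and limma did not call it (adjusted p = 0.123), a fit in which the lone UUO sample is assumed to vary like the Controls. On the arcsine square root scale it was not called either (adjusted p = 0.107). A share also rises when other cells are lost, and more basophils cannot be told apart from fewer of the other cells recovered.

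Proximal tubule (PT) cells made up between 43.8% and 79.3% of a library and dominate the total, so basophils were also taken as a share of the cells outside PT. They were 0.893% (0.619 to 1.25) and 1.34% (1.04 to 1.71) in UUO 1 and UUO 2. They were 0.0632%, 0.105%, 0.204%, 0.151% and 0.0545% in Control 1, Control 2, the pooled Controls 3 and 4, Control 5 and Control 6. The lower UUO sample was 4.37 times the highest Control, a wider gap than among all cells. UUO averaged 1.12% ± 0.317 (SD, n = 2) and Control 0.116% ± 0.0627 (SD, n = 5), which made the ratio 9.66. The make-up of the cells outside PT differed, however. Immune cells were 3205 of 3809 in UUO 1 and 3712 of 4848 in UUO 2. They were 299 of 1582 in Control 1, 281 of 1913 in Control 2 and 787 of 3429 in pooled Controls 3 and 4. In Control 5 they were 851 of 5946, and in Control 6 709 of 3673. How much of the wider gap this made was not tested.

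The log2 odds difference outside PT was 3.17 (1.87 to 4.47, limma adjusted p = 0.000758, exact permutation p = 0.0476), in a fit that called 33.3% of 27 classes higher and 59.3% in either direction (66.7% before adjustment). The exact p was at its minimum in 59.3% of the classes. It was called by limma under every alternative run. Without UUO 2 it was 2.88 (adjusted p = 0.0155, exact permutation p = 0.167), where the lone UUO sample is assumed to vary like the Controls. Among cells under 10% mitochondrial UMIs the difference was 1.95, a lower value.

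**Figure D1:**
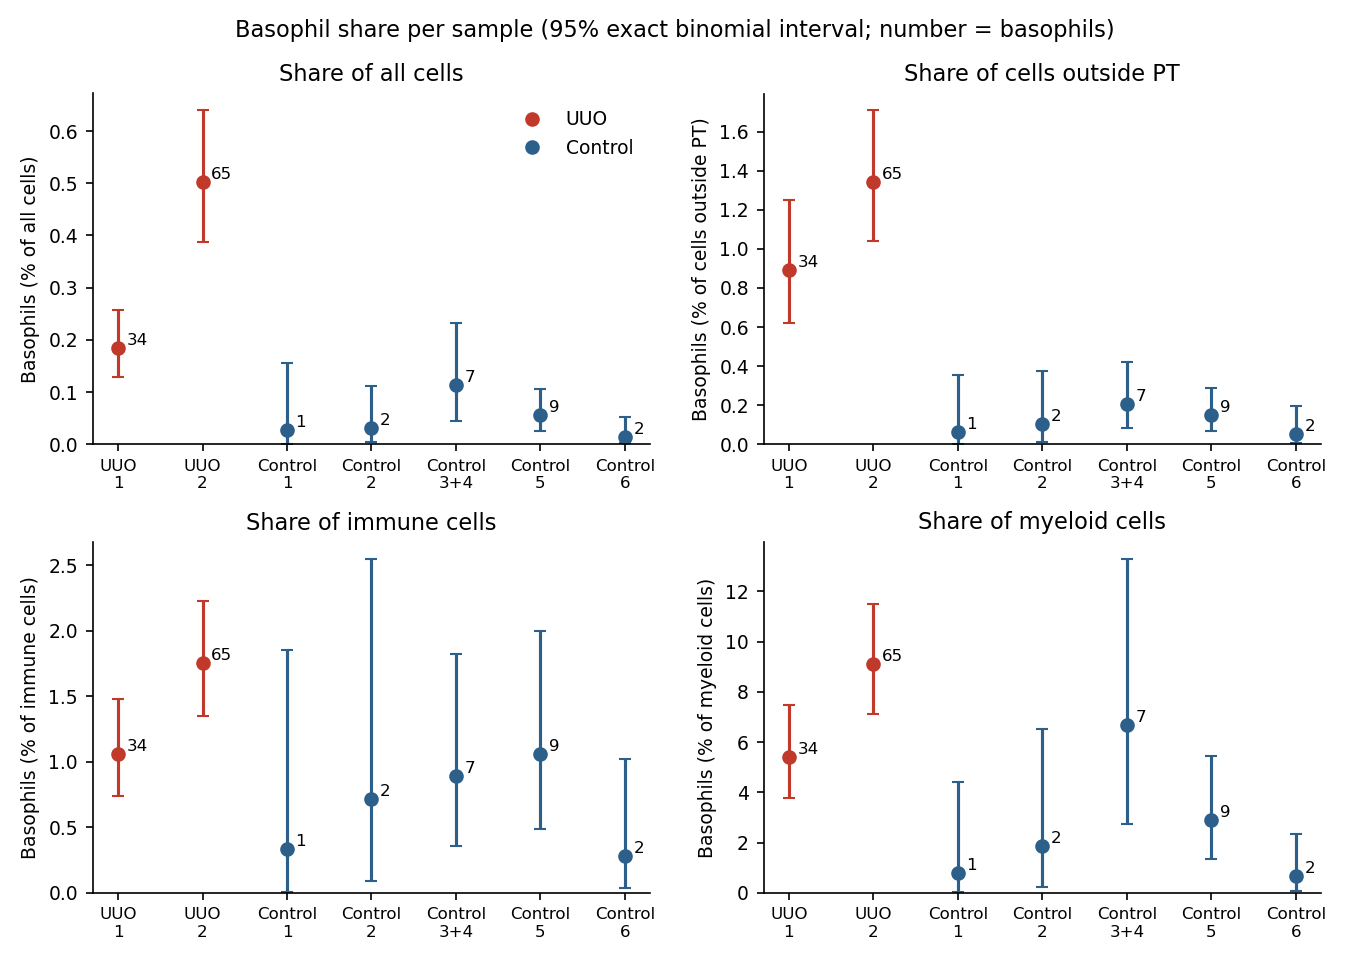
Basophils as a percentage of all cells, of cells outside PT, of immune cells and of myeloid cells (y axes, from 0) in each sample (x axis); points are samples, bars are 95% exact binomial intervals, and numbers are basophils counted. The UUO samples lie above all Control samples in the upper panels (0.185% and 0.503% of all cells), and meet or overlap them in the lower panels.

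Within the immune compartment, basophils of UUO kidneys were not set apart from those of Control kidneys. They made up 1.06% (0.736 to 1.48) of immune cells in UUO 1 and 1.75% (1.35 to 2.23) in UUO 2. In the Controls they made up 0.334% in Control 1, 0.712% in Control 2, 0.889% in the pooled Controls 3 and 4, 1.06% in Control 5 and 0.282% in Control 6. UUO 1 (34 of 3205 cells) and Control 5 (9 of 851) had the same share to 3 digits, and only UUO 2 stood clear of the Controls.

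The means were 1.41% ± 0.488 (SD, n = 2) in UUO and 0.655% ± 0.340 (SD, n = 5) in Control. The log2 odds difference was 0.99 with a 95% interval from -0.46 to 2.44, limma adjusted p = 0.390 and exact permutation p = 0.143. In that fit 0% of 15 classes were called, with 13.3% under an unadjusted p of 0.05. The interval does not leave out a difference as large as the 1.41 estimated for Th17 cells, nor a difference of 0. The basophil rise among all cells can be written as a sum: on the log2 share scale the mean difference was 3.0, of which 1.76 was the higher immune share in UUO and 1.24 the higher basophil share within immune cells. Nothing was added to the counts on this scale. The size within immune cells depends on that choice, being 0.99 in the fit and 0.79 with an offset of 1 cell.

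**Figure D2:**
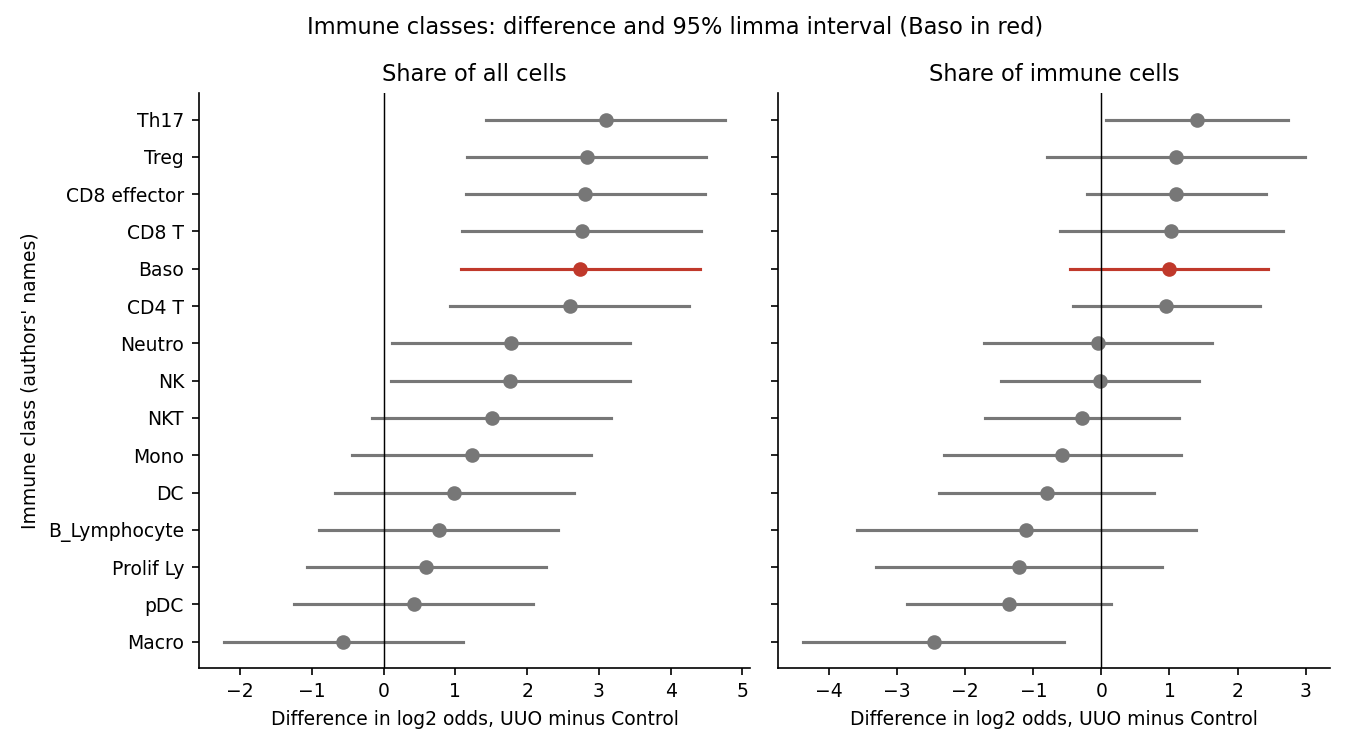
Difference in log2 odds, UUO minus Control (x axis), for each of the 15 immune classes (y axis), as a share of all cells (left) and of immune cells (right); points are limma estimates and lines 95% intervals, with basophils in red. Basophils are at 2.74 on the left, with an interval above 0, and at 0.99 on the right, with an interval that spans 0.

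Basophils were next set against the 5 other myeloid classes, the neutrophils, monocytes, macrophages, DC and pDC. They were 5.40% (3.77 to 7.46) and 9.10% (7.10 to 11.5) of myeloid cells in UUO 1 and UUO 2. The Controls spread widely, with 0.806% in Control 1, 1.85% in Control 2, 6.67% in the pooled Controls 3 and 4, 2.91% in Control 5 and 0.649% in Control 6. The pooled Controls 3 and 4 lay inside the UUO range, on 7 basophils among 105 myeloid cells.

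The means were 7.25% ± 2.62 (SD, n = 2) in UUO and 2.58% ± 2.46 (SD, n = 5) in Control. Basophils had the largest difference of the 6 myeloid classes, 1.77 (0.03 to 3.51), which did not pass after adjustment (limma adjusted p = 0.138, exact permutation p = 0.143). In that fit 0% of classes were called, with 33.3% under an unadjusted p of 0.05. With centred log-ratios the basophil difference was called (1.65, adjusted p = 0.0458). By size, pDC were fewer than basophils in both UUO samples, and basophils were the smallest myeloid class in every Control sample as counted. In the library of Control 4 alone, 3 DC stood beside 4 basophils.

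A ratio of basophils to another class does not depend on how many tubular cells were recovered. Th17 cells, named with basophils in the series title, came first. There were 9.60 basophils per 100 Th17 cells in UUO 1 and 18.3 in UUO 2. In Control 1 there were 12.5, in Control 2 18.2, in the pooled Controls 3 and 4 14, in Control 5 21.4 and in Control 6 8.70. The groups overlapped throughout, with means of 13.9 ± 6.15 (SD, n = 2) in UUO and 15 ± 4.95 (SD, n = 5) in Control.

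Both classes were thus higher in UUO as shares of all cells, without a detected difference between their rises. Th17 cells were 1.92% and 2.75% of all cells in UUO 1 and UUO 2, and between 0.168% and 0.805% in the Control samples as counted. With 0.5 added to both counts, the log2 ratio of basophils to Th17 cells was -3.36 in UUO 1. That was below every Control, the lowest being Control 6 at -3.23. The difference in this log2 ratio was -0.33 (exact permutation p = 0.476, adjusted over 14 ratios 0.667). It changed sign without UUO 1 (0.13) and among cells of at least 1000 UMIs (0.41). The latter limit left no basophils in Control 1 and Control 2, whose ratios then rest on the 0.5 added.

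For 4 other lymphoid classes the mean ratios in UUO lay within the Control range. There were 16.4 ± 1.06 basophils per 100 CD8 effector cells in UUO and 16.2 ± 8.70 in Control. For CD8 T cells the values were 16.8 ± 3.54 in UUO and 19.1 ± 16.1 in Control, for regulatory T cells (Treg) 13.4 ± 4.17 in UUO and 16.7 ± 15.2 in Control, and for CD4 T cells 5.85 ± 3.17 in UUO and 5.11 ± 3.76 in Control. The log2 ratio differences of these classes lay between -0.07 for Treg and 0.21 for CD4 T, with exact permutation p of at least 0.810. Such p-values do not show that the ratios were alike, and the Control spread was wide.

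Macrophages gave the widest gap. There were 77.3 basophils per 100 macrophages in UUO 1 and 98.5 in UUO 2, against 1.45 in Control 1, 4.26 in Control 2, 33.3 in the pooled Controls 3 and 4, 20 in Control 5 and 5.41 in Control 6. Both UUO samples stood above every Control, and the log2 ratio difference was 3.30 (exact permutation p = 0.0476, adjusted 0.333). Macrophages were 0.239% and 0.510% of all cells in UUO 1 and UUO 2, and between 0.271% and 1.92% in the Control samples as counted, a log2 odds difference of -0.57 (limma adjusted p = 0.550).

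In 4 of the 14 ratios (28.6%) every UUO sample lay above every Control sample: those to macrophages, pDC, proliferating lymphocytes (Prolif Ly) and NKT cells. The log2 differences were 2.32 for pDC, 2.14 for Prolif Ly and 1.24 for NKT, each with an exact permutation p of 0.0952. For B lymphocytes, DC and monocytes the differences were 1.97, 1.76 and 1.52, and for neutrophils and NK cells 0.99 and 0.99, with overlapping groups. Of the 14 ratios 7.14% reached an unadjusted exact p under 0.05 and 0% passed after adjustment, where the lowest adjusted p was 0.333.

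Neutrophils, the other granulocyte class, were the largest myeloid class in both UUO samples. There were 8.50 and 17.8 basophils per 100 neutrophils in UUO 1 and UUO 2. In the Controls the values ran from 1.36 in Control 6 to 15.9 in the pooled Controls 3 and 4.

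**Figure D3:**
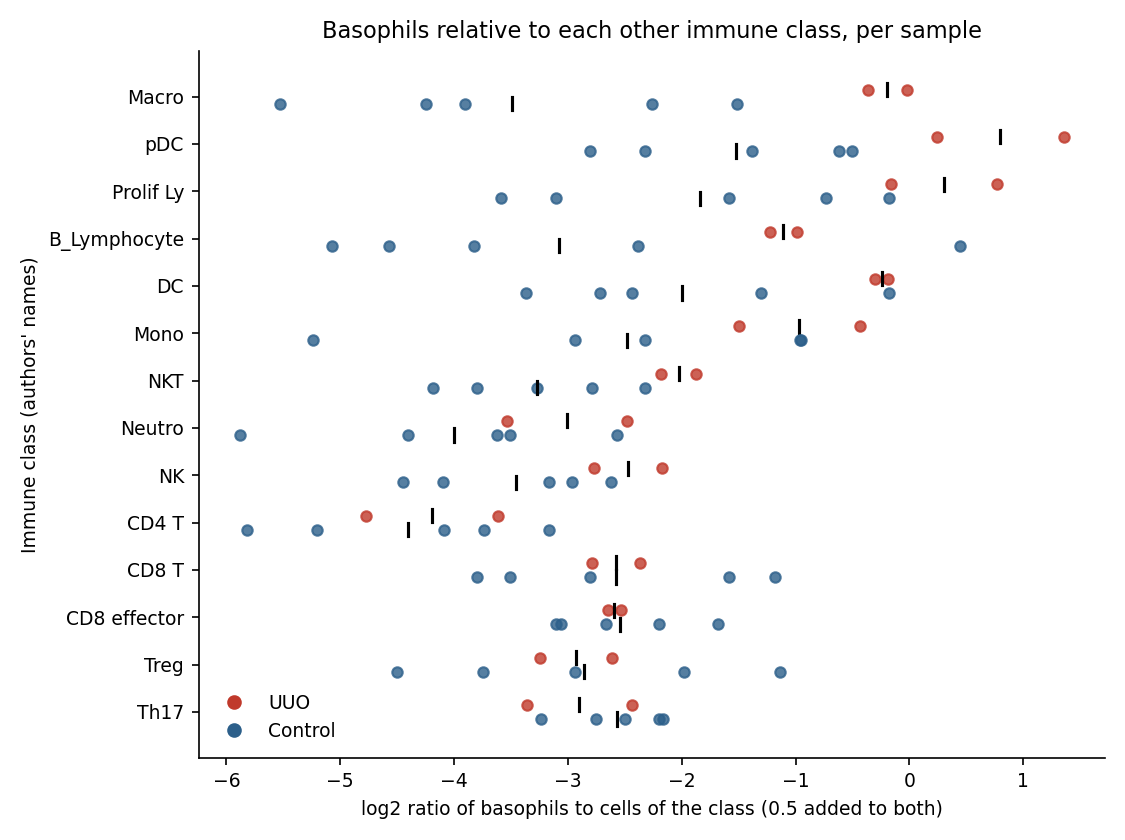
The log2 ratio of basophils to cells of each other immune class (x axis, 0.5 added to both counts) by class (y axis); each point is a sample, UUO above Control, and black ticks are group means. UUO samples stand to the right of all Control samples for macrophages, pDC, Prolif Ly and NKT, and lie among them for Treg and the CD8 classes. For Th17, UUO 2 lies among the Controls, and UUO 1, at -3.36, lies to the left of all of them (lowest Control -3.23).

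UMIs and genes detected per basophil were compared as measures of transcript content, which a library's depth also sets. The median basophil held 2102 UMIs in UUO 1 and 1900 in UUO 2. In the Controls the medians were 854 in Control 1 (1 cell), 816.5 in Control 2 (2 cells), 1681 in Control 3 (3 cells), 1444 in Control 4 (4 cells), 1555 in Control 5 (9 cells) and 1134 in Control 6 (2 cells). Both UUO medians exceeded every Control median, although the cells themselves overlapped, from 558 to 9041 UMIs in UUO and from 773 to 4861 in Control.

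The test took samples with at least 3 basophils, which left Control 5 and the pooled Controls 3 and 4. Their mean of medians was 2001 ± 143 UMIs in UUO and 1504 ± 72.8 in Control (SD, n = 2 each), a 1.33-fold difference on the log2 scale of 0.41 (-0.33 to 1.15). It did not pass (limma adjusted p = 0.377 over 28 classes, of which 7.14% were called), and an exact permutation of 2 against 2 samples cannot go below p = 0.333. With all 5 Control samples taken, down to 1 cell each, the difference was 0.83 (limma adjusted p = 0.114, exact permutation p = 0.0952).

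Other immune cells also held more UMIs in the UUO samples. Their medians were 2174 and 2292 UMIs in UUO 1 and UUO 2, and between 1287 and 2076 in the Control samples as counted. Over cells of all classes the order differed, with 2496 and 2584 in UUO 1 and UUO 2 and 2944 in Control 5. Relative to the other immune cells, basophils were lower in every sample, with log2 ratios of -0.05 and -0.27 in UUO 1 and UUO 2. In the Controls the ratios were -0.59 in Control 1, -0.95 in Control 2, -0.29 in the pooled Controls 3 and 4, -0.42 in Control 5 and -0.40 in Control 6. On this relative scale the difference was 0.19 (exact permutation p = 0.333, the smallest that 2 samples against 2 allow). It was 0.080 without UUO 1, 0.30 without UUO 2 and 0.37 with all 5 Control samples (exact permutation p = 0.0952).

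Genes detected followed UMIs. The median was 903.5 genes per basophil in UUO 1 and 857.0 in UUO 2, and in the Controls it ran from 490.0 in Control 1 to 859.0 in Control 3. The log2 difference was 0.34 (-0.25 to 0.93, limma adjusted p = 0.371, in a fit that called 3.57% of classes, and 25% before adjustment). With genes per cell set against UMIs per cell, as log10 genes over log10 UMIs, the difference was 0.0030 (-0.018 to 0.024, limma adjusted p = 0.825, with 0% of classes called). Genes per cell could not be thinned to a common depth, since gene counts were not analysed here.

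Among immune classes basophils were cells of low to middling UMI number. They ranked 9 of 15 by median UMIs in UUO 1 and 12 of 15 in UUO 2, where neutrophils had medians of 5044 and 5574 UMIs. At matched depth they detected about as many genes as other immune cells. Against immune cells of other classes within 10% of its UMIs in the same sample, the median basophil detected 1.03 times as many genes in UUO 1 and 0.989 times as many in UUO 2. Th17 cells, by the same measure, detected 1.09 and 1.07 times as many, and CD4 T cells 0.847 and 0.865 times as many.

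The mitochondrial share of UMIs, often read as a sign of stressed or broken cells, was low in most basophils. Its median was 2.50% in UUO 1 and 3.16% in UUO 2. In the Controls it was 1.64% in Control 1, 2.80% in Control 2, 1.5% in Control 3, 2.48% in Control 4, 6.94% in Control 5 and 4.86% in Control 6. The UUO medians lay inside the Control range, with a difference of -1.65 percentage points (-9.13 to 5.82, limma adjusted p = 0.997, with 0% of classes called), which turned to 0.81 without Control 5.

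A tail of basophils had at least 10% mitochondrial UMIs. These were 9 of 34 in UUO 1 (26.5%, 12.9 to 44.4) and 12 of 65 in UUO 2 (18.5%, 9.92 to 30.0), against 3 of 9 in Control 5 (33.3%, 7.49 to 70.1) and 0 in the other Control libraries. By this percentage basophils ranked 2 of 15 immune classes in UUO 1, 5 in UUO 2 and 6 in Control 5. Such cells were common in other classes of Control 5, with 77.6% of neutrophils and 73.0% of Treg. With so few Control cells a difference was not detectable: 0 of the 4 basophils in Control 4, for example, has an exact upper bound of 60.2%. Leaving such cells out of every class gave a log2 odds difference of 2.59 among all cells (limma adjusted p = 0.0179) and 0.54 among immune cells.

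**Figure D4:**
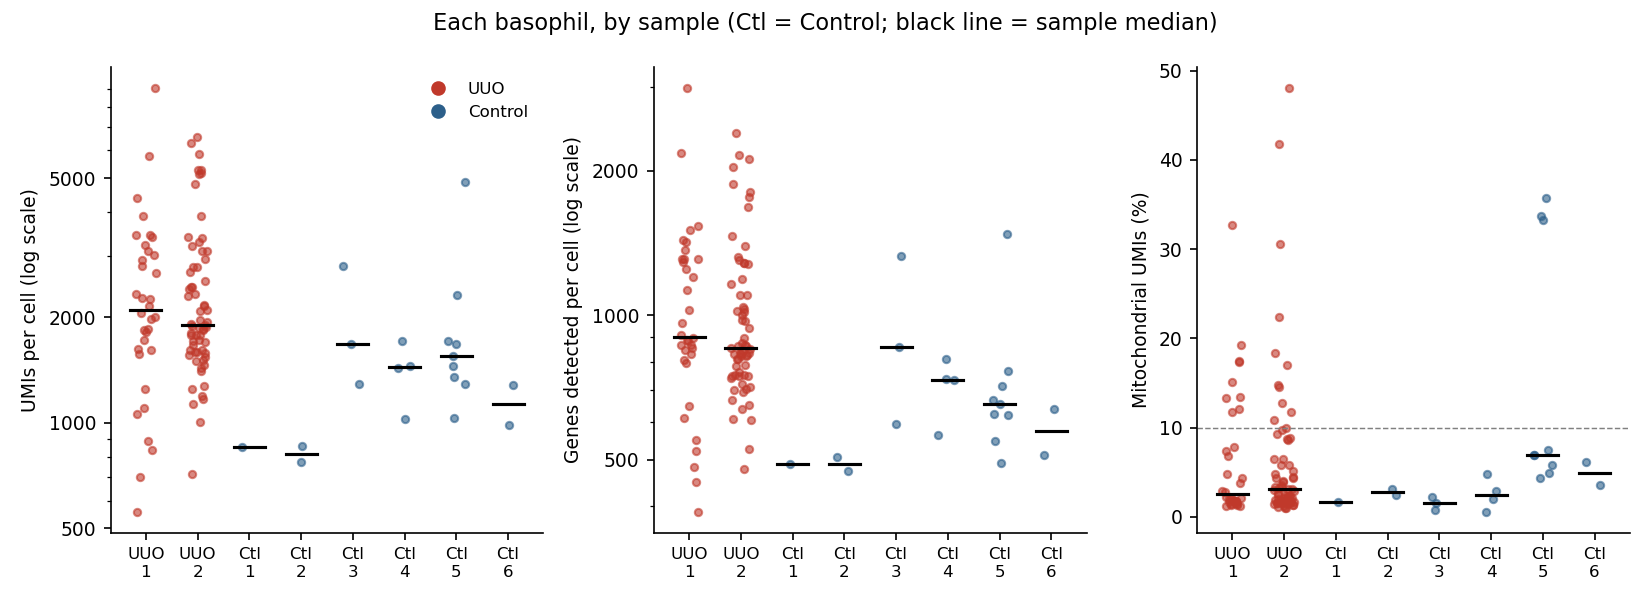
UMIs (left, log scale), genes detected (middle, log scale) and mitochondrial percentage of UMIs (right) of each of the 120 basophils (y axes) by sample (x axis); points are cells, black lines sample medians, and the dashed line marks 10%. Median UMIs are 2102 and 1900 in the UUO samples and at most 1681 in the Controls, and high mitochondrial values occur in UUO 1, UUO 2 and Control 5.

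In the authors' UMAP embedding, a 2-dimensional map in which cells with like expression lie close, basophils formed an island of their own. Of the 120, 119 lay within 1 unit of their median position, the farthest of them at 0.574 units, and the nearest cell beyond that radius was a monocyte at 3.79 units. Positions and classes come from the same cells, so this is a description with no test. Of the 15 nearest cells of each basophil, 97.4% were basophils, which ranked 6 of 27 classes. The classes with the closest median positions were pDC, at 4.57 units, and monocytes, at 4.95.

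A few cells went against this pattern. A basophil of UUO 2 with 3286 UMIs, 1281 genes and 3.99% mitochondrial UMIs lay 8.36 units away, and all 15 of its nearest cells were Th17 cells. Inside the island lay 2 cells of other classes, a CD8 T cell and a cell of class CNT, 1 from UUO 2 and 1 from Control 6. Without the outlying basophil the difference in the share of all cells was 2.73, near the 2.74 with it.

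The island was drawn out along a line, which held 99.6% of the spread of its cells and was 0.761 units long. Control basophils kept to a stretch between 0.146 and 0.323 units from the low end, and UUO basophils covered its whole length (21 Control and 98 UUO cells). The medians were 0.168 in UUO 1 and 0.177 in UUO 2, and between 0.168 and 0.265 in the 6 Control libraries. The group means of the sample median positions were 0.0255 units apart, and the exact permutation test of 2 samples against 2 gave p = 0.667. The distance was 0.0081 without Control 5 and 0.0887 with means in place of medians (exact permutation p = 0.333).

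UMIs and mitochondrial share were both higher towards the high end of the line. With the cells cut by position into 4 near-equal bins, the highest bin (30 cells) had a median of 3372 UMIs and 1346 genes, and the other bins had medians of 1829, 1608 and 1713 UMIs from the low end up. Of the 24 basophils with at least 10% mitochondrial UMIs, 13 lay in the highest bin. Spearman's rho between position and UMIs across cells was 0.648 in UUO 1 (34 cells) and 0.480 in UUO 2 (64 cells). Cells of a library share its depth, and these values are descriptions.

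Beyond 0.25 units from the median position, a radius chosen after the values were seen, lay 15 island cells, all from UUO. These held between 3024 and 9041 UMIs, with a median of 4803, against 1753 in the 104 cells within that radius (83 UUO and 21 Control). Their median mitochondrial share was 10.0%, against 2.53% within. At the other end, the lowest bin held 30 UUO cells and 0 Control cells, with a median of 1829 and at most 2926 UMIs. The part of depth and mitochondrial share in the wider spread of UUO basophils was not tested.

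**Figure D5:**
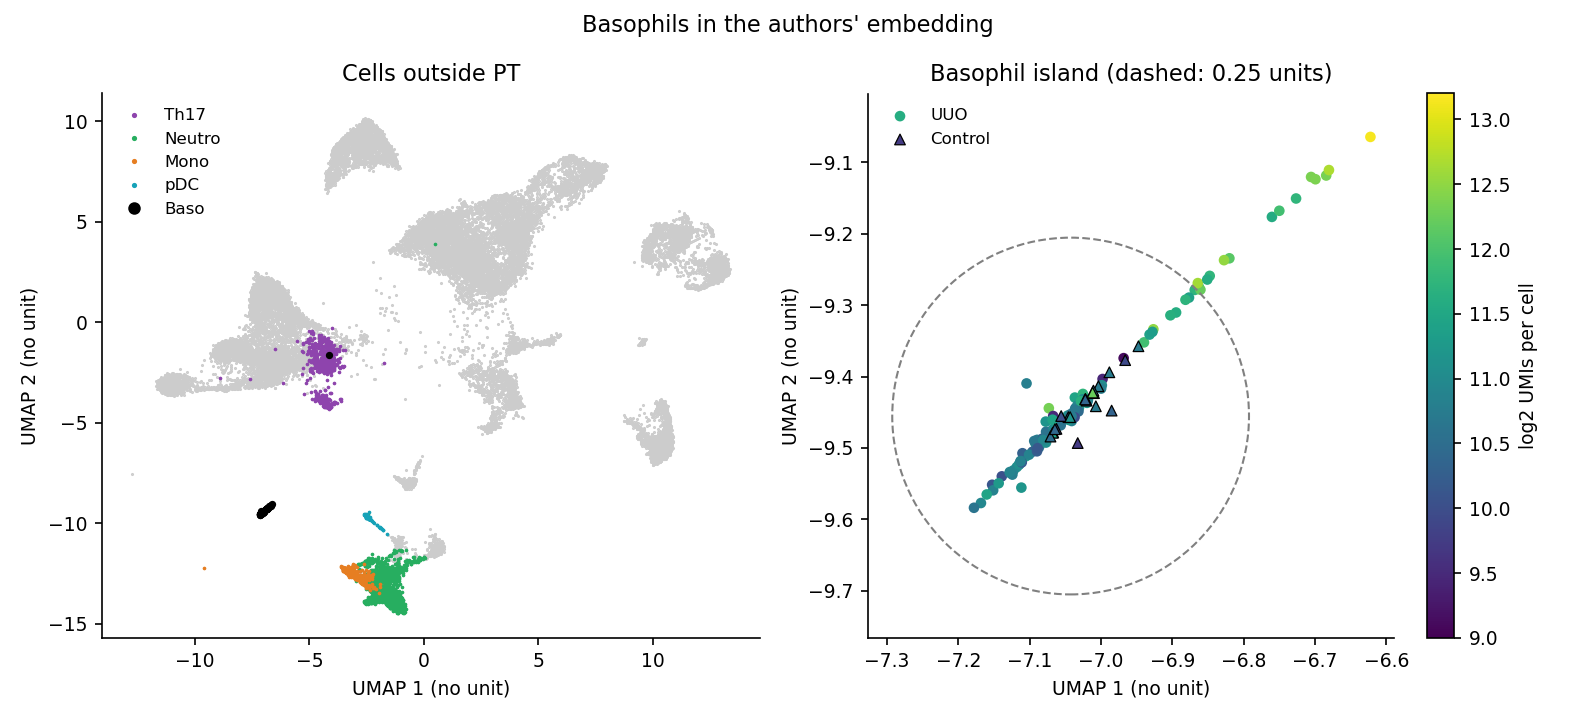
UMAP positions (axes without unit) of the 25200 cells outside PT with basophils in black (left), and of the 119 island basophils coloured by log2 UMIs (right; circles UUO, outlined triangles Control, dashed circle 0.25 units around the median). Control basophils occupy a short stretch of the line, and the 15 cells outside the circle are UUO cells of at least 3024 UMIs.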

How the data were processed

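Tools named in the submitters' processing notes are Seurat 4.0.1 and Cell Ranger 6.0.1, with build mm10; they are listed here without roles or settings. Cell filters, clustering, the treatment of doublets and the embedding's settings were not given in the sources used here. Each row of the deposited cell table is 1 cell, with the authors' class and sample name. Its UMIs and genes per cell are raw counts, per the file headers, and its mitochondrial share is a percent of UMIs, per the file headers. Embedding coordinates are deposited for 25200 cells as a score without unit. No column of values per sample was left unused (0 columns).

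Groups and sample numbers came from titles. The basophils, class lists and tests were chosen with earlier results of these data known, and so was the pooling of Controls 3 and 4. Shares on the scale log2((n + 0.5)/(N - n + 0.5)) were fitted with limma 3.58.1 (R 4.3.3) over all classes of the denominator, with Benjamini-Hochberg adjustment and a threshold of 0.05. Exact two-sided permutation tests over samples stand beside them, with 21 splits of 2 against 5. Sample medians needed at least 3 cells. Depth limits precision: a library of 2263 cells with 0 basophils could still hold 0.133%. The fit of shares of all cells was tested on simulated data in which only basophils were shifted. That setting does not cover these data, in which 50% of the 28 classes were called. The permutation test was checked on a made-up set of values. Alternatives included edgeR 4.0.16 on cell numbers. The text names basophils in every comparison, the other immune classes in the ratios, neighbours in an order, and the classes nearest in the embedding. Other cells it names were chosen after their values were seen.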

Additional observations from a re-analysis of the deposited data

How the results depend on the processing

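The direction of the basophil difference held under every alternative run for shares of all cells (2.02 to 3.46 on the log2 odds scale), of cells outside PT (1.95 to 3.68), of immune cells (0.54 to 1.67) and of myeloid cells (1.17 to 2.40). The highest values outside PT, among immune cells and among myeloid cells came from cells of at least 1000 UMIs. At that limit Control 1 and Control 2 held no basophils, so their shares rest on the 0.5 added. With Controls 3 and 4 as separate samples the difference was 2.47 for all cells (limma adjusted p = 0.0139) and 0.86 for immune cells (limma adjusted p = 0.561). For all cells the call was lost on the arcsine square root scale (0.0363, adjusted p = 0.107) and without UUO 2, and leaving out single samples gave 2.02 to 3.46. The myeloid share was called only with centred log-ratios (1.65) and with the replicate block (2.18, adjusted p = 0.0399). The block takes sample numbers as pairs, so that UUO 1, UUO 2, Control 1 and Control 2 alone inform the difference, and its values were the same with Controls 3 and 4 separate or pooled. It gave 2.94 for all cells, 1.06 for immune cells and 3.33 outside PT, with no other call on shares changed. The numbers come from titles, which do not say that same-numbered samples belong together. Same-numbered samples deviated from their group means with correlations of -0.248 and -0.00367 over 28 classes. The deviations of UUO 1 and UUO 2 mirror each other, so these values cannot settle whether the numbers pair samples. Samples with at least 3 basophils share no number, so the block on per-cell measures planned for them was not run. A block with at least 1 cell per sample, added after the data were seen, rests on the 3 basophils of Control 1 and Control 2. It gave log2 differences of 1.26 in UMIs (limma adjusted p = 9.6e-05) and 0.84 in genes (limma adjusted p = 0.00204), both called. The differences were 0.61 points in mitochondrial share and -0.022 for log10 genes over log10 UMIs (limma adjusted p = 0.0332). These p-values draw on the spread of other classes, since the block leaves little spread among basophil samples to measure.

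Leaving out single samples gave -0.79 to 0.13 for the log2 ratio to Th17 cells. This difference was also reversed among cells of at least 1000 UMIs (0.41), where Control 1 and Control 2 held no basophils. Leaving out single samples also gave -1.98 to 0.81 percentage points for mitochondrial share and -0.0079 to 0.0072 for log10 genes over log10 UMIs. The last was also reversed with at least 1 cell per sample (-0.0087) and with Controls 3 and 4 separate (-0.00070). The causes were not tested. Too few basophils limit the Control values, with 21 cells over 6 libraries.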

Other observations

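In both UUO libraries, basophils with at least 10% mitochondrial UMIs held more UMIs than the other basophils. The medians were 3430 in the 9 such cells and 1840 in the other 25 of UUO 1, and 2892 in 12 cells and 1802 in the other 53 of UUO 2. The ratios, 1.86 and 1.61, were the highest of the immune classes with at least 5 such cells (12 classes in UUO 1, 14 in UUO 2). Macrophages had the lowest, 0.392 and 0.321, and neutrophils had 0.991 and 0.977. In Control 5 the order differed, with 2.45 for NK cells, 1.69 for macrophages and 0.464 for neutrophils, and the 3 such basophils had a median of 2315 UMIs against 1453 in the other 6. Non-mitochondrial UMIs were higher in these basophils too, with medians of 2930 against 1802 in UUO 1 and 2447 against 1764 in UUO 2. This comparison was chosen after the values were seen, and it compares cells within libraries, with no test.

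All 3 basophils of Control 1 and Control 2 had fewer than 1000 UMIs, as did 1 of 2 in Control 6 and 0 of 16 in Controls 3, 4 and 5. In UUO 1 and UUO 2, 4 of 34 and 1 of 65 did. Among cells of at least 1000 UMIs the log2 odds difference in the share of all cells was 3.20 (limma adjusted p = 0.00696, exact permutation p = 0.143).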
